A study of Homo sapiens with 48 samples.

Results

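Interferon-stimulated genes (ISGs) are genes whose transcription rises when cells meet an interferon, and 43 of them were followed here. They include sensors of double-stranded RNA, the transcription factors that carry the interferon signal and the IFIT and IFITM families. The ISG15 conjugation system, the MX and GBP GTPases and further antiviral effectors are also among them. The 43 genes were taken from a list of gene symbols, and a gene was tested when its counts summed to at least 500 over all 48 libraries. By that rule 42 of the 43 genes were kept among 13175 genes tested of 19509 with any count. OAS1, with 481 counts in total, was the gene left out, and its level is given without a test.

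The RNA came from IMR90 human lung fibroblasts carrying ER:RAS G12V, an oncogenic RAS joined to the ligand-binding part of the oestrogen receptor, so that 4-hydroxytamoxifen (4OHT) switches the protein on and sets off senescence. Cells were given 4OHT or its solvent DMSO, transfected on day 6 with siRNA and collected 2 days later in low serum. Each treatment was combined with a non-targeting siRNA (siNT1 or siNT2), with siRNA against SF3B1 (siSF3B1-13 or siSF3B1-16), a subunit of the U2 snRNP that recognises the branch point, or with siRNA against RBM39 (siRBM39-06 or siRBM39-08), an RNA-binding splicing factor. All 48 libraries carry the same ER:RAS G12V construct, the DMSO libraries included, and 4 replicates of each siRNA give 8 libraries in each of the 6 groups. The labels do not say whether replicates were separate cultures, so p-values measure the spread between these libraries, and in bulk RNA fewer cells expressing a gene and less RNA per cell cannot be told apart.

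Type I interferons bind IFNAR1 and IFNAR2 and act through the JAK kinases to form ISGF3, a complex that contains STAT2 and IRF9 and binds the interferon-stimulated response element (ISRE) in ISG promoters. Interferon gamma instead acts through gamma-activated sites (GAS), with IRF1 as an early target. Many ISG products sense or destroy foreign RNA or block viral entry, and fibroblasts keep a low level of them without added interferon.

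Promoter sequence shows which of these elements the genes carry. RefSeq windows (GRCh38.p14), from 250 bases before to 50 bases after a gene's start, were found for 35 of the 43 genes, in 46 windows, and none was used for IRF7, TRIM22, IFIT2, USP18, IFITM2, OASL, MX2 and OAS2. The ISRE core GAAANNGAA, searched on both strands, was present in 25 of the 35 genes (71.4%), whereas 2693 of all 27305 genes with a window held it (9.86%, or 8.11% of the 35116 windows). In 17 of the 35 a window held 2 or more cores, overlapping ones included, compared with 0.861% of all genes. The GAS motif TTCNNNGAA, whose reverse complement has the same form, was present in 10 of the 35 (28.6%) and in 9.38% of all genes. Of the 35 genes, 6 held both motifs and 6 held neither. A match is a description of the letters and not evidence that a factor binds.

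The windows below belong to genes that the later results turn on, each printed 5′ to 3′ on the gene's own strand, with the motif match in capitals. MX1 has 2 overlapping ISRE cores just after its start, at bases 12 to 20 and 18 to 26, OAS3 has cores at -143 and -12, and IFI44L repeats the same core at -164 and -73, with all positions counted from the start site and given for the first base of the match. IFIT1 holds 2 reverse-strand cores at -115 and -102. CMPK2 and RSAD2 are divergent neighbours whose windows share 165 bases, and the ISRE core in both is the same stretch of DNA, at bases 6 to 14 of CMPK2 and -79 to -71 of RSAD2. IFI35 and IRF1 are shown for their GAS match, at -22 and at -124.
MX1 promoter, chr21:41420308-41420607, plus strand: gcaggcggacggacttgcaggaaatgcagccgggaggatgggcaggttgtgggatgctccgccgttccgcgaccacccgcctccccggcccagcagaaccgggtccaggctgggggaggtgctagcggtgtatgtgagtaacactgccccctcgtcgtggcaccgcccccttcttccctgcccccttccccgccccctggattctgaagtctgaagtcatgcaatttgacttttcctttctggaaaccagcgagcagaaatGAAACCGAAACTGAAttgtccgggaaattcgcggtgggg
OAS3 promoter, chr12:112938224-112938523, plus strand: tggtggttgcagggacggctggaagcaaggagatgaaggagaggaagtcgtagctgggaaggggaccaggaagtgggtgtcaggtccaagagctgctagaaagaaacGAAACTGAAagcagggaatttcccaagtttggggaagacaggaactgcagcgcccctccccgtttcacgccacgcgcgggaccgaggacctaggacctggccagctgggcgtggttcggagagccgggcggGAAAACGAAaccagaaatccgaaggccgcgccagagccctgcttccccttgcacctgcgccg
IFI44L promoter, chr1:78620198-78620497, plus strand: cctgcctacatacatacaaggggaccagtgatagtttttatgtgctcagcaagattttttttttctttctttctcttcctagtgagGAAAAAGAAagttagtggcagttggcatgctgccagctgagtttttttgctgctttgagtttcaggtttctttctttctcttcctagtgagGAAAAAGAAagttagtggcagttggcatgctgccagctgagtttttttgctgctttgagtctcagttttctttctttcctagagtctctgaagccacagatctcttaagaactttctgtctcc
IFIT1 promoter, chr10:89392373-89392672, plus strand: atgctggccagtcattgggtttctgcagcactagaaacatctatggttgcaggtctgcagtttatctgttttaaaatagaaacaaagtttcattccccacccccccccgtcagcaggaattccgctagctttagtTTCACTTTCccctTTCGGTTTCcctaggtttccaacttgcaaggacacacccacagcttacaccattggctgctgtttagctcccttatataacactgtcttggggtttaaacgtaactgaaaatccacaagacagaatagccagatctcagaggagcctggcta
CMPK2 promoter, chr2:6865770-6866069, minus strand: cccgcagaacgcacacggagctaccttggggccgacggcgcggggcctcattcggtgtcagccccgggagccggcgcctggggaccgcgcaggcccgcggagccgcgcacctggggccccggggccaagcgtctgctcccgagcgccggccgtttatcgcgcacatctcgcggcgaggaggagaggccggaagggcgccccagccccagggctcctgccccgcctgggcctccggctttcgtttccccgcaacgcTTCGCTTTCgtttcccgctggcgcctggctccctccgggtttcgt
RSAD2 promoter, chr2:6865635-6865934, plus strand: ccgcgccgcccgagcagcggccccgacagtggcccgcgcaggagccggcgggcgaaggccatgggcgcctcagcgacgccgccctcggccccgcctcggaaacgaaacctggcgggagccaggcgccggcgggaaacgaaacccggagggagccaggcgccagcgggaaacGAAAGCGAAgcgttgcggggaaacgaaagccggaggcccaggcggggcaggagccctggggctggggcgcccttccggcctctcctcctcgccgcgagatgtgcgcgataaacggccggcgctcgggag
IFI35 promoter, chr17:43006534-43006833, plus strand: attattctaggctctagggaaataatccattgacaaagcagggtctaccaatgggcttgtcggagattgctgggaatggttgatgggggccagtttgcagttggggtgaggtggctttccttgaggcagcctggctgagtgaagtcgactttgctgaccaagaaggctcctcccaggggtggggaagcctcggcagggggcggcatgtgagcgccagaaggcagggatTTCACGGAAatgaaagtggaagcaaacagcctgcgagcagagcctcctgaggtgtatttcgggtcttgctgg
IRF1 promoter, chr5:132490724-132491023, minus strand: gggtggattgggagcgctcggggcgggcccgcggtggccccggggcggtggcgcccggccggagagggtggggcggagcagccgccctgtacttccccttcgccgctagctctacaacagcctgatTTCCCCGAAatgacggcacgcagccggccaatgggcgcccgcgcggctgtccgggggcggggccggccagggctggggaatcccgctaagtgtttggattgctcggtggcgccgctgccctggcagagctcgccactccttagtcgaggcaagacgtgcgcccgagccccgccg

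Both targets were knocked down by each siRNA. SF3B1 averaged 349 CPM (counts scaled to a common library size with TMM factors) with siNT1 and 353 with siNT2 in DMSO and fell to 31.6 with siSF3B1-13 and 34.05 with siSF3B1-16. In 4OHT the means were 327 and 331 with siNT and 27.7 and 27.02 with siSF3B1. RBM39 averaged 170 and 164 CPM in DMSO and fell to 25.2 with siRBM39-06 and 28.3 with siRBM39-08, and in 4OHT it went from 123 and 118 to 15.001 and 17.6 CPM (n = 4 for each mean). With siSF3B1, RBM39 was at 289 and 317 CPM in DMSO and at 249 and 254 CPM in 4OHT. With siRBM39, SF3B1 was at 469 and 491 CPM in DMSO and at 435 and 371 CPM in 4OHT, the last mean including a library at 224 CPM. Libraries held 31467221 to 52734636 counts (median 39656598), of which the ISGs took 0.0493% to 0.123%. All 12 fibroblast markers were present in every library (COL1A1 median 10819 CPM), and the 7 leukocyte markers summed to 32.7 to 116 CPM, with the defining PTPRC and CD3E at or below 0.197 and 0.0774 CPM.

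The library 4OHT siRBM39-08 replicate 4 stood apart from the other 7 of its group. It was the highest of the 8 for 14 ISGs and the lowest for 16, so 30 of 42 were at an extreme, while the other libraries were at an extreme of their group for 2 to 26 ISGs (median 9). ISG15, the ubiquitin-like modifier, was at 122.5 CPM there and at 19.8 to 26.8 CPM in the other 7. SF3B1 was at 224 CPM, and the summed epithelial markers were at 82.3 CPM against 6.64 to 13.1 CPM in the others. The other marker sums also lay outside the range of the other 7. Fibroblast markers summed to 28439 CPM (19012 to 24116 CPM in the others) and leukocyte markers to 115.7 CPM (81.6 to 99.9 CPM). Endothelial markers were lower, at 37.8 CPM against 48.05 to 53.5 CPM. Values for siRBM39 in 4OHT include this library unless it is said to be left out. The ISG calls that changed without it are given for siRBM39 against siNT, for its interaction and between the siRBM39 siRNAs. They are not given for single siRBM39 siRNAs against siNT, for splicing events or for marker and pathway genes. Tests of the other groups also use a spread estimated over all 48 libraries, this one included. The part of these markers in the results was not tested.

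In DMSO siNT cells the ISGs covered a wide span of levels. Per transcript length (RPKM corrected for mappable length, cRPKM), IFITM3 at 198 ± 11.4 and IFITM2 at 187 ± 9.44 (SD, n = 8) were the highest, both membrane proteins that block virus fusion, although reads of these near-identical paralogues can be split between them. STAT2 at 52.1 ± 5.69 and UBE2L6, the conjugating enzyme for ISG15, at 42.2 ± 0.926 cRPKM followed. The order of neighbouring levels was often within the spread, as for IFITM1 (29.4 ± 3.30), ISG15 (28.7 ± 2.38) and TRIM22 (27.9 ± 1.70). Of the 43 genes, 14 averaged at least 10 cRPKM, 18 lay between 1 and 10 and 11 were under 1, down to OASL at 0.0188 ± 0.0217. STAT2 (14.6%), EIF2AK2 (11.4%) and TRIM22 (7.14%) made up 33.1% of the summed ISG CPM. At the low end, 10 ISGs had fewer than 100 counts summed over 8 libraries in at least 1 group, and 4 had a library at 0. OAS1, untested, lay at 0.0956 to 0.607 CPM in DMSO siNT and at 0.0229 to 1.02 CPM or at 0 elsewhere.

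**Figure D1:**
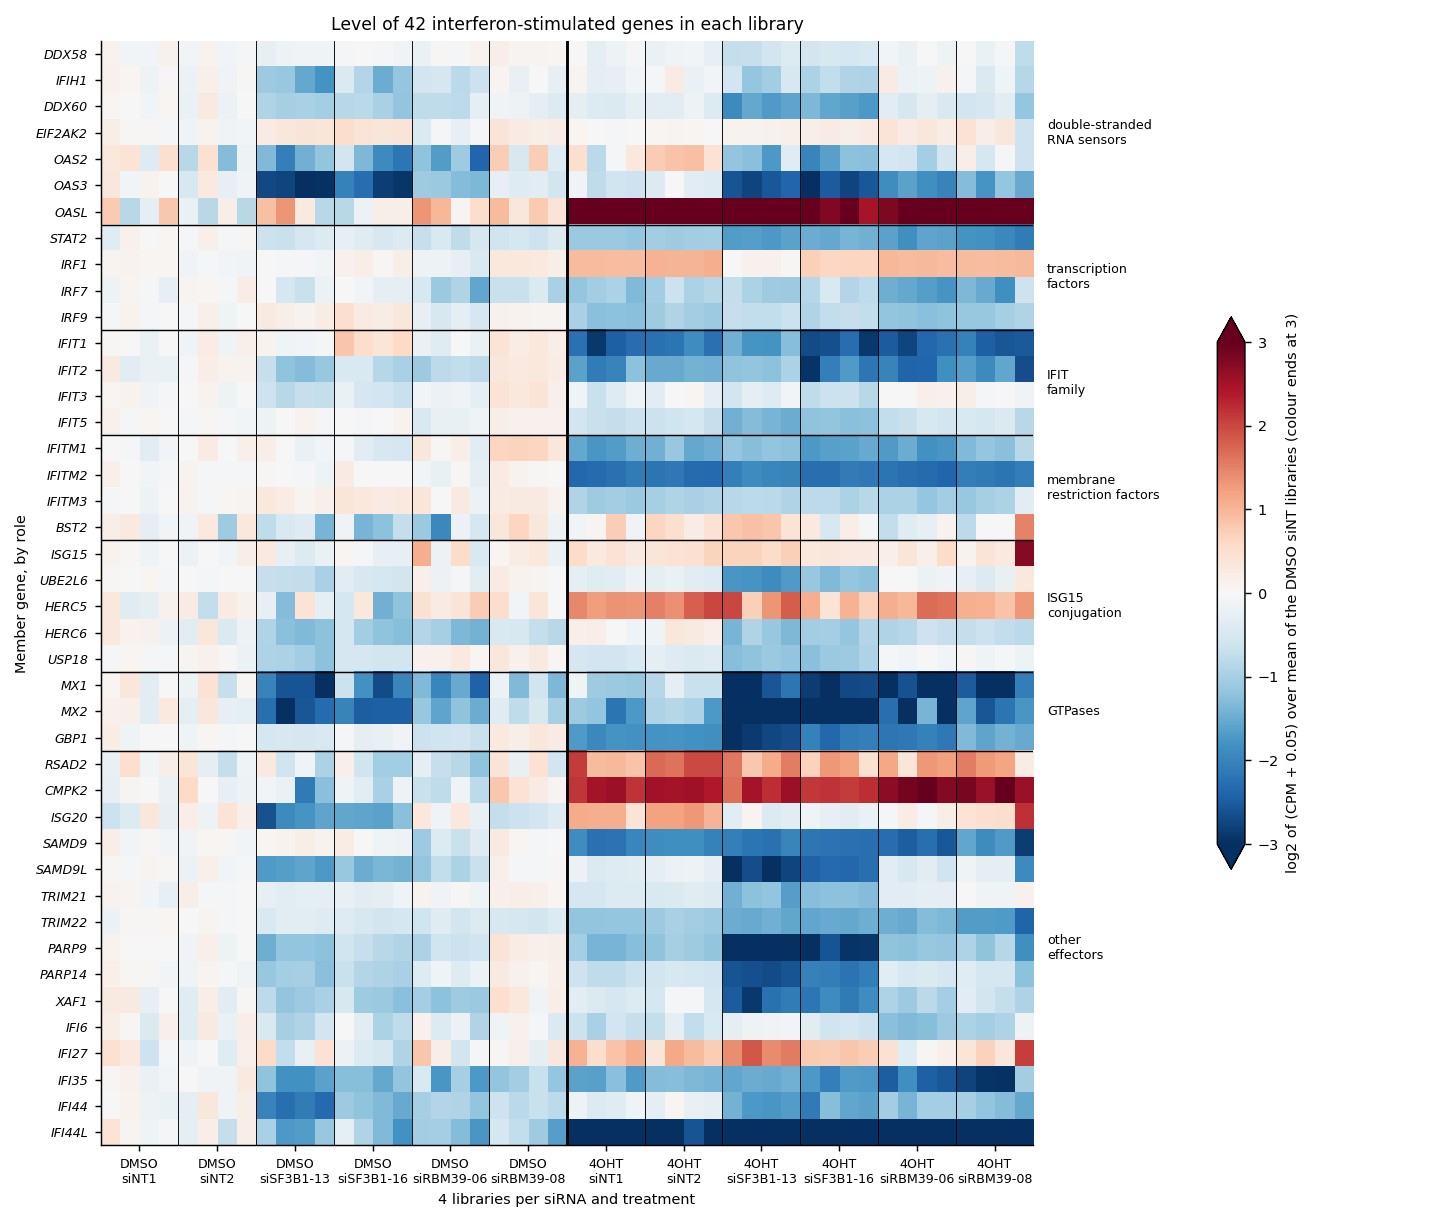
Heat map of the 42 tested ISGs (rows, ordered by role) in the 48 libraries (columns, 4 per siRNA and treatment), coloured by the log2 of CPM plus 0.05 relative to the mean of the 8 DMSO siNT libraries. OASL and CMPK2 are high in the 4OHT columns, and MX1, MX2 and OAS3 are low in the siSF3B1 columns of both treatments.

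The first comparison asks how ISGs differ between cells with active RAS and control cells when no splicing factor is depleted. Most ISGs were lower with 4OHT: 26 of 42 fell and 7 rose, beside 40.4% lower and 37.1% higher among all genes tested, and the median log2 fold change was -0.41 against -0.03 for all genes. The summed level went from 1111 ± 40.1 to 738 ± 33.5 CPM (SD, n = 8). The groups did not overlap for 26 of the 42, a count that was not made over all genes here or in later comparisons. Fold changes are from edgeR's quasi-likelihood test, with p adjusted by Benjamini-Hochberg over all genes tested.

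OASL, an OAS relative that enhances RIG-I signalling, was nearly silent in DMSO siNT (0 to 4 counts per library, at most 0.105 CPM) and was present in every 4OHT siNT library (37 to 76 counts, 0.997 to 2.07 CPM). It rose 37.3-fold (log2 5.22, SE 0.37, edgeR adjusted p = 7.44e-18). CMPK2, a mitochondrial nucleotide kinase, went from 0.278 to 0.537 CPM up to 1.67 to 2.28 CPM, a 6.01-fold rise (log2 2.59, SE 0.19, edgeR adjusted p = 6.14e-17). RSAD2 (viperin), whose window shares its ISRE core with CMPK2, rose by 1.87 on the log2 scale from a median of 0.141 CPM to 0.6001 CPM. No strand setting of the gene counting is given in the sources used here, so reads near these divergent starts could be shared between the neighbours.

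IFI44L, a paralogue of IFI44, went the other way. Its median was 1.82 CPM (1.09 to 2.40) in DMSO siNT and 0.0521 CPM (0.0224 to 0.260) in 4OHT siNT, which is 4.54% of the control level (log2 -4.46, SE 0.31, edgeR adjusted p = 9.47e-18) and rests on 585 and 25 summed counts. IFIT1, which binds viral 5′ ends, fell from a median of 13.3 CPM (11.7 to 15.6) to 2.80 CPM (1.75 to 3.64), or to 20.5% (log2 -2.29, SE 0.17, edgeR adjusted p = 7.69e-17). None of the 8 libraries of either gene reached into the other group.

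By role, among the double-stranded RNA sensors OASL rose, OAS3 (-0.39), DDX60 (-0.33) and DDX58, encoding RIG-I (-0.14), fell, and IFIH1, EIF2AK2 and OAS2 did not pass. Of the 4 transcription factors, IRF9 (-1.10), STAT2 (-1.08) and IRF7 (-0.99) fell and IRF1 rose by 0.99. All 4 IFIT genes fell (IFIT1, IFIT2 at -1.59, IFIT5 at -0.63, IFIT3 at -0.21), as did all 3 GTPases (GBP1 -1.81, MX2 -1.34, MX1 -0.71) and the 3 IFITM genes (IFITM2 -2.25, IFITM1 -1.49, IFITM3 -0.99), while BST2, or tetherin, did not pass. In the ISG15 system HERC5, the ISG15 ligase, rose (1.66), and USP18, which removes ISG15 and shares reads with a close copy, and UBE2L6 fell (-0.45 and -0.29). The libraries of ISG15 itself did not overlap (16.4 to 20.96 against 22.2 to 29.2 CPM) yet the gene did not pass (log2 0.44, SE 0.24, edgeR adjusted p = 0.0933). That SE comes from a spread estimated over all 48 libraries, the 122.5 CPM of 4OHT siRBM39-08 replicate 4 included. A value for ISG15 without that library is not given for this comparison. Among the 15 other effectors 4 rose, namely CMPK2, RSAD2, the exonuclease ISG20 (1.12) and IFI27 (0.93), and 8 fell, led by IFI44L, SAMD9 (-1.98) and IFI35 (-1.44).

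Of the genes with the ISRE core, 5 of 25 rose and 15 fell (median -0.39), and of the 9 tested without it 1 rose and 5 fell (median -0.29). Cell type markers also moved with 4OHT. Of the 12 fibroblast markers 10 fell, beside 40.4% of all genes tested (COL1A2 -3.36, DCN -5.02), with a summed level of 58880 to 66246.6 CPM in DMSO siNT and 21678.9 to 22811.9 CPM in 4OHT siNT. Of 7 leukocyte markers 3 were tested and 2 rose (CSF1R 3.08, CD68 0.94), the sum going from 35.96 to 47.3 CPM up to 73.3 to 85.7 CPM, while CD3E and PTPRC were near 0. All 3 epithelial markers tested fell (median -1.27), and of 3 endothelial markers 2 rose and 1 fell (median 0.85). Their part in the ISG result was not tested.

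**Figure D2:**
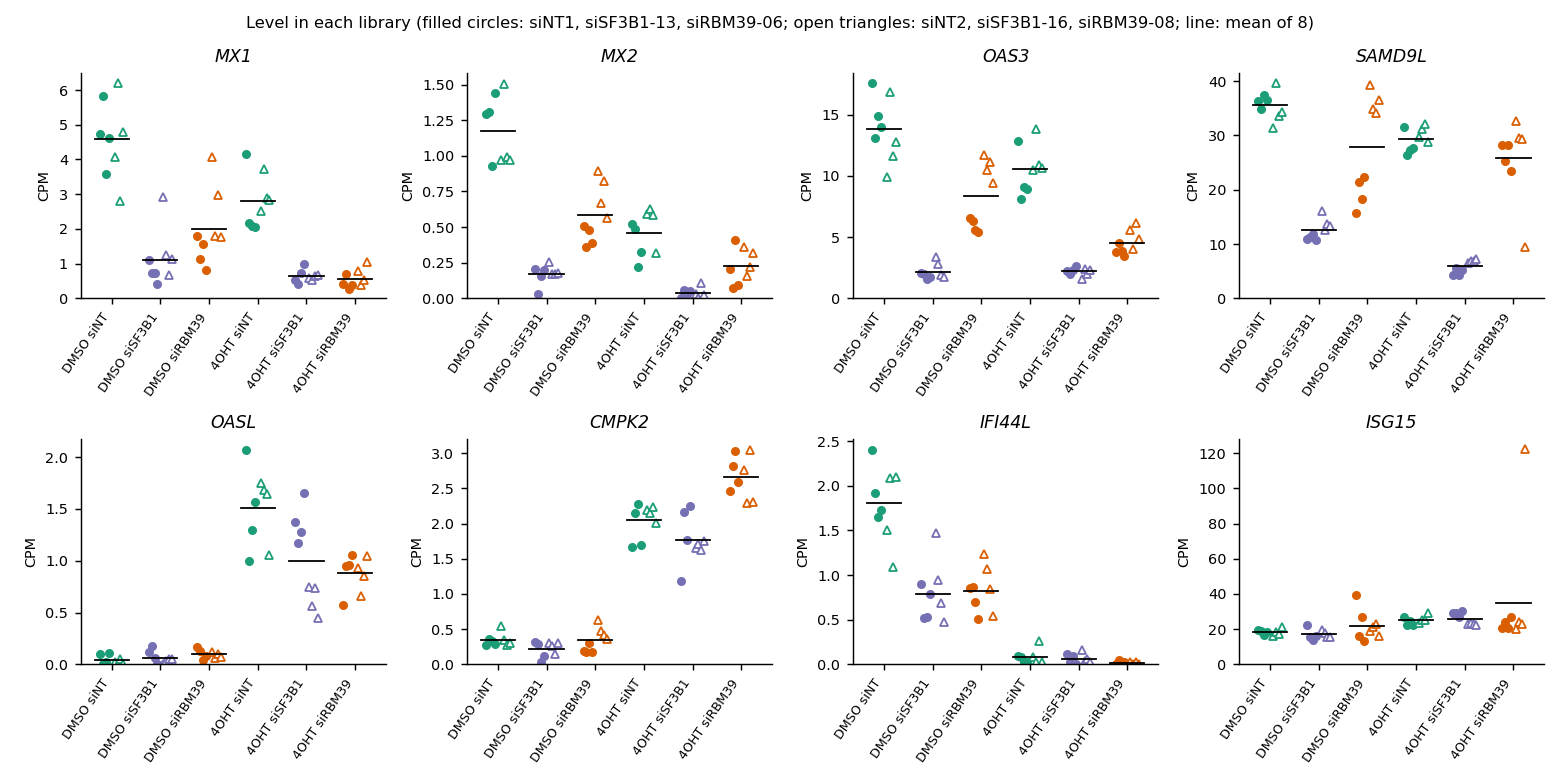
CPM of MX1, MX2, OAS3, SAMD9L, OASL, CMPK2, IFI44L and ISG15 in each library, with the 6 groups on the x axis, filled circles and open triangles for the first and the second siRNA of a target and a line at the mean of 8. OASL rises from at most 0.105 CPM in DMSO siNT to at least 0.997 CPM in 4OHT siNT, and a lone ISG15 point at 122.5 CPM marks the library that stands apart.

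Knockdown of SF3B1 lowered ISGs in both treatments. In DMSO 25 of 42 fell and 3 rose (37.3% and 33.9% of all genes tested; ISG median -0.59, all genes -0.01), and in 4OHT 25 fell and 2 rose (37.3% and 36.5% of all genes; ISG median -0.50, all genes 0.00). The libraries of the 2 groups did not overlap for 18 ISGs in DMSO and for 23 in 4OHT, which was not counted over all genes. The summed level went from 1111 ± 40.1 to 936 ± 63.6 CPM in DMSO and from 738 ± 33.5 to 555 ± 19.5 CPM in 4OHT. Within each treatment the siSF3B1 and siRBM39 comparisons share the siNT libraries. Cell type markers moved too: with siSF3B1 6 of 12 fibroblast markers fell and 1 rose in DMSO, and 3 fell and 5 rose in 4OHT. The summed endothelial markers went from 31.2 to 34.5 CPM with siNT to 20.3 to 24.9 CPM with siSF3B1 in DMSO, and from 27.4 to 30.2 CPM to 32.96 to 44.1 CPM in 4OHT. Their part in the ISG result was not tested.

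MX2, OAS3, which makes the 2-5A messenger that activates RNase L, and MX1 had the largest falls in DMSO, and MX2, SAMD9L, OAS3 and MX1 had the largest in 4OHT. MX2 in DMSO was at 0.932 to 1.504 CPM (median 1.14) with siNT and at 0.0287 to 0.257 CPM (median 0.174) with siSF3B1, 14.8% of control (log2 -2.76, SE 0.27, edgeR adjusted p = 8.47e-13). In 4OHT it went from a median of 0.505 CPM (0.217 to 0.627) to 0.0272 CPM (0 to 0.106), 8.70% of control by the fit (log2 -3.52, SE 0.41, edgeR adjusted p = 1.36e-10), with 11 summed counts and 3 libraries at 0. OAS3 in DMSO fell from a median of 13.5 CPM (9.92 to 17.6) to 1.96 CPM (1.57 to 3.37), 15.5% of control (log2 -2.69, SE 0.17, edgeR adjusted p = 2.51e-19). For both genes every siSF3B1 library was under every siNT library. OAS3 in 4OHT fell from 10.5 CPM (8.11 to 13.8) to 2.29 CPM (1.59 to 2.61) (log2 -2.27, SE 0.17).

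MX1, the cytoplasmic GTPase against influenza and related viruses, fell in DMSO from a median of 4.67 CPM (2.81 to 6.19) to 0.914 CPM (0.425 to 2.91) and in 4OHT from 2.68 CPM (2.05 to 4.17) to 0.623 CPM (0.401 to 0.982). The log2 fold changes were -2.03 (SE 0.27) and -2.12 (SE 0.29). In DMSO the 2.91 CPM of siSF3B1-16 replicate 1 reached into the siNT range, and in 4OHT the groups were separate. ISG20 in DMSO went from 0.789 CPM (0.481 to 1.06) to 0.225 CPM (0.0872 to 0.301) (log2 -1.89, SE 0.29, edgeR adjusted p = 1.78e-07), on 253 and 65 summed counts. SAMD9L, an inhibitor of translation and growth, went in 4OHT from 29.2 CPM (26.4 to 32.1) to 6.06 CPM (4.27 to 7.31), 20.2% of control (log2 -2.31, SE 0.17, edgeR adjusted p = 5.79e-17).

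By role, 4 of 7 sensors fell in DMSO and 6 of 7 in 4OHT (IFIH1, encoding MDA5, -1.15 and -0.77; DDX60 -0.96 and -1.30), while EIF2AK2, the kinase PKR, rose in DMSO by 0.38 and did not pass in 4OHT (0.15, edgeR adjusted p = 0.128). Among the transcription factors STAT2 fell in both (-0.46 and -0.48) and IRF9 rose in both (0.26 and 0.37), and IRF1 fell in 4OHT (-0.60) but was at 0.06 in DMSO. The IFIT genes split: IFIT3 fell in both treatments (-0.59 and -0.29), IFIT2 in DMSO (-0.86) and IFIT5 in 4OHT (-0.68). Of the 5 ISG15 genes the same 3 fell in both treatments, HERC6 (-1.09 and -1.23), UBE2L6 (-0.62 and -1.17) and USP18 (-0.77 and -0.70), and ISG15 itself was at -0.12 and 0.06. Other effectors fell in 12 of 15 in DMSO and 9 of 15 in 4OHT, among them IFI44 (-1.68 and -1.43), PARP9 (-0.99 and -2.03) and PARP14 (-0.97 and -1.72), ADP-ribosylation enzymes, and XAF1 (-0.99 and -1.88). Membrane factors gave 1 rise and 1 fall in DMSO (IFITM3 0.25, BST2 -0.81) and 1 rise in 4OHT (IFITM2 0.17). In 4OHT, 13 of the 25 genes with the ISRE core fell, as did 7 of the 9 without it, of which 1 rose.

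**Figure D3:**
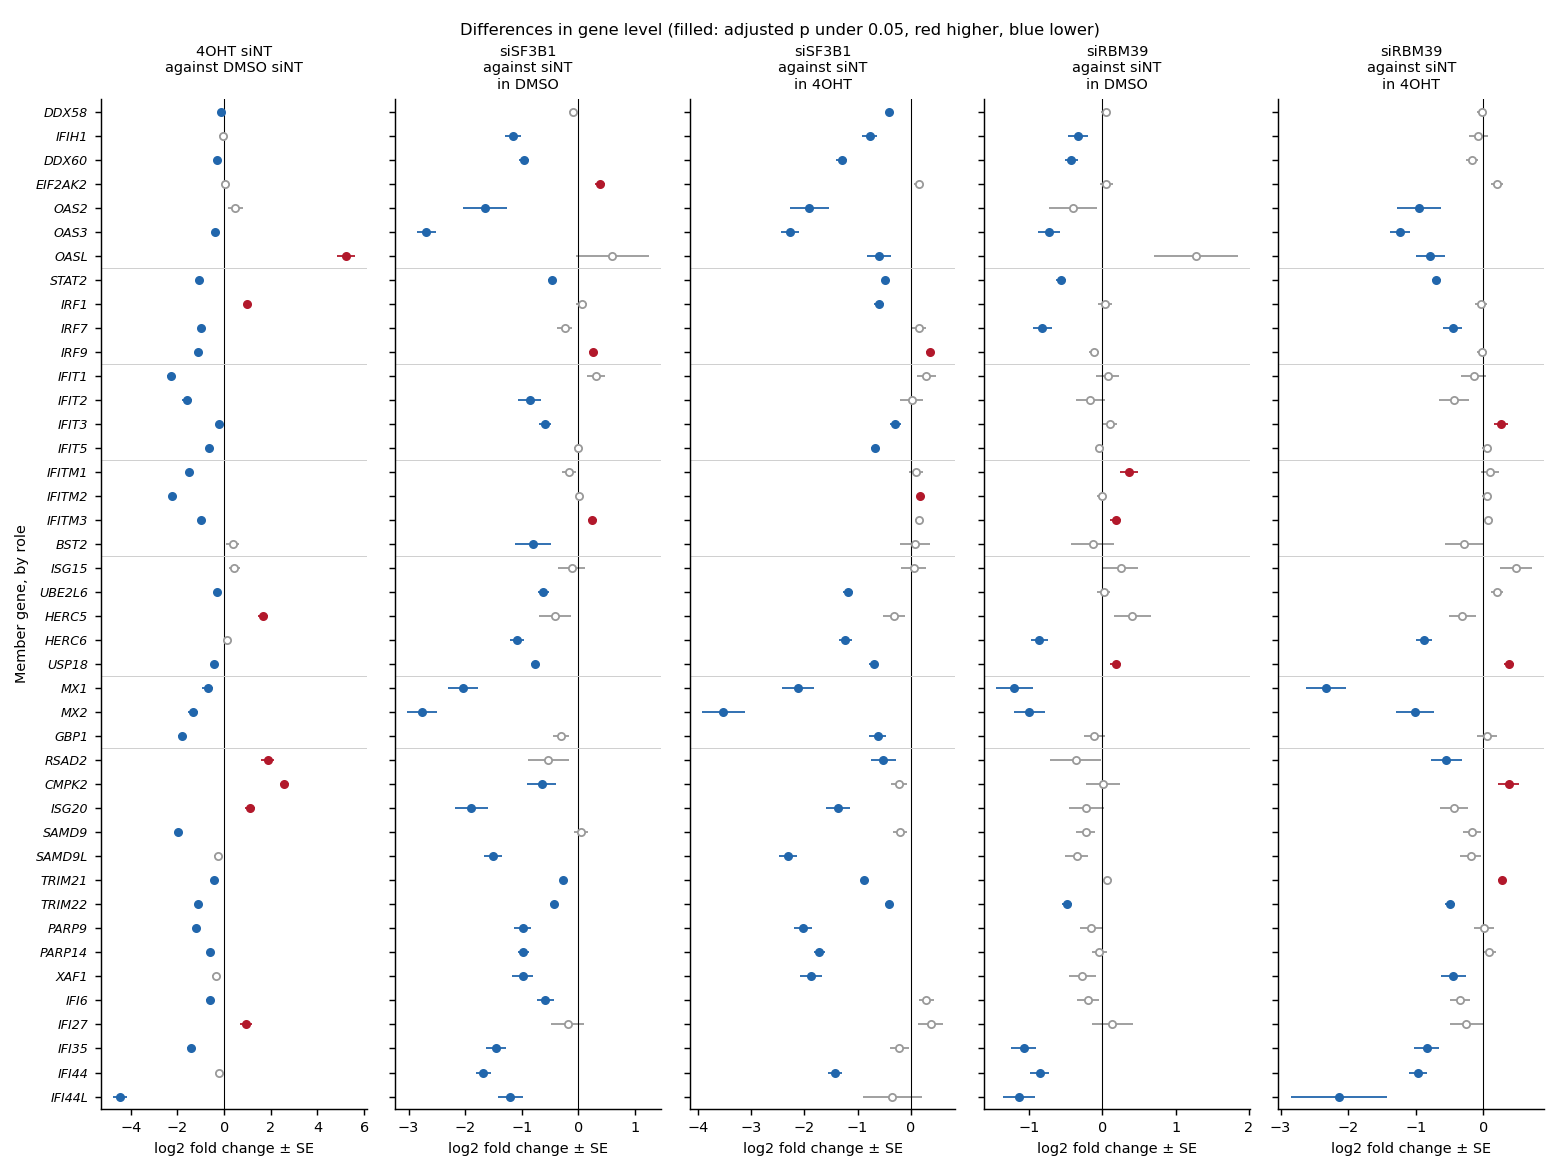
Log2 fold change of each tested ISG (x axis, with bars of 1 SE) in 5 comparisons, from left to right 4OHT against DMSO in siNT cells, siSF3B1 against siNT in DMSO and in 4OHT and siRBM39 against siNT in DMSO and in 4OHT, with filled red or blue points for edgeR adjusted p under 0.05. MX2, OAS3 and MX1 lie below -2 in both siSF3B1 panels, and OASL at 5.22 is the rightmost point of the first.

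The effect of siSF3B1 differed between treatments for 13 of 42 ISGs in an interaction test, 10 with a more negative effect in 4OHT and 3 with a higher one (18.6% and 16.7% of all genes tested). PARP9 fell from a median of 27.5 to 13.5 CPM in DMSO and from 12.1 to 2.82 CPM in 4OHT (interaction log2 -1.05, SE 0.22, edgeR adjusted p = 0.000214). XAF1 (-0.89), a pro-apoptotic partner of XIAP, and SAMD9L (-0.81) went the same way, as did PARP14 (-0.75), IFIT5 (-0.68), IRF1 (-0.66), the antibody receptor TRIM21 (-0.61), UBE2L6 (-0.56), DDX60 (-0.34) and DDX58 (-0.31). IFI35 fell in DMSO from 10.1 CPM (9.08 to 12.8) to 3.91 CPM (2.90 to 4.57), but in 4OHT, where control cells were already at 4.00 CPM (3.18 to 4.34), siSF3B1 cells were at 3.33 CPM (2.46 to 3.77) and the test was not passed (interaction log2 1.25, SE 0.25, edgeR adjusted p = 7.89e-05). IFIT2 (interaction 0.88) and IFI6 (0.87), a mitochondrial antiapoptotic protein, fell in DMSO (-0.86 and -0.58) and did not pass in 4OHT, where their values were 0.02 and 0.29.

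The 2 SF3B1 siRNAs were compared with each other in a fit of 12 groups. In DMSO siSF3B1-16 was higher than siSF3B1-13 for 8 ISGs and lower for 1 (16.9% and 15.7% of all genes), led by MX1 (1.00), IFI44 (0.91), IFIT1 (0.64) and PARP9 (0.51), with IFITM1 lower (-0.32). In 4OHT it was higher for 7 and lower for 8 (11.4% and 11.1%), led by OASL (-1.14), IFIT1 (-1.07), IFIT2 (-0.996) and IFI27 (-0.83). IFIT1 therefore differed in opposite directions. In DMSO the siSF3B1-13 libraries were at 14.4, 12.3, 12.6 and 12.8 CPM and the siSF3B1-16 libraries at 24.01, 19.4, 17.3 and 20.4 CPM. In 4OHT they were at 4.92, 3.85, 3.85 and 5.53 CPM and at 2.02, 2.10, 2.70 and 1.77 CPM. The libraries of the 2 siRNAs did not overlap in either treatment, and the pooled siSF3B1 tests of IFIT1 were not passed in either (0.32 and 0.29). Against siNT, siSF3B1-13 lowered 26 and raised 3 ISGs in DMSO (38.8% and 35.1% of all genes) and siSF3B1-16 lowered 26 and raised 5 (36.2% and 32.6%). In 4OHT the counts were 22 lower and 7 higher (37.8% and 37.4%) with siSF3B1-13 and 28 lower and 1 higher (36.7% and 35.2%) with siSF3B1-16. MX2, OAS3, MX1 and SAMD9L fell with each siRNA in each treatment, by between 1.36 and 3.84 on the log2 scale.

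Knockdown of RBM39 gave calls that depended on the siRNA and the fit. In DMSO 12 of 42 fell and 3 rose (22.6% and 21% of all genes tested; ISG median -0.14, all genes 0.01), without overlap for 7 (not counted over all genes). The same DMSO comparison called 23 ISGs when the siRNAs were fitted as separate groups (12 groups), where the share over all genes was not counted. With siRBM39-06 as the only siRNA, an alternative added after seeing the data, it called 28. Among all genes siRBM39-06 alone lowered 28.6% and raised 27.1%. In 4OHT 14 fell and 4 rose (23.1% and 30.8% of all genes; ISG median -0.18, all genes 0.06), without overlap for 9 (not counted over all genes). The summed ISG level was 1008 ± 128 CPM in DMSO and 718 ± 19.8 CPM in 4OHT, against 1111 ± 40.1 and 738 ± 33.5 CPM with siNT (SD, n = 8). Without the library that stood apart, 16 fell and 5 rose in 4OHT (shares over all genes not counted), with 16 of the 18 calls made in both fits. RSAD2 (-0.46) and XAF1 (-0.42) were no longer called, and EIF2AK2, BST2, ISG20, IFI6 and IFI27 became called. IRF7 was at -0.61 and IFI35 at -1.11 without it, and at -0.45 and -0.83 with it. Of the markers, 3 of 3 epithelial and 2 of 3 endothelial genes tested were higher with siRBM39 in 4OHT. The endothelial sum was 37.8 CPM in the library that stood apart and 48.05 to 53.5 CPM in the other 7. The epithelial sum was 82.3 CPM in the library that stood apart and 6.64 to 13.1 CPM in the other 7. With siNT in 4OHT it was 6.69 to 9.89 CPM. Marker calls without that library are not given, and the part of the markers in the ISG result was not tested.

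MX1 had the largest fall with siRBM39 in both treatments. In DMSO it fell from a median of 4.67 to 1.78 CPM (0.818 to 4.07) (log2 -1.20, SE 0.25, edgeR adjusted p = 9.11e-05), with overlapping groups. In 4OHT it fell from 2.68 to 0.473 CPM (0.275 to 1.04), 19.9% of control (log2 -2.33, SE 0.30, edgeR adjusted p = 4.85e-09), and every siRBM39 library lay under every siNT library. IFI44L fell in DMSO from 1.82 to 0.848 CPM (0.506 to 1.24) (log2 -1.14, SE 0.22) and in 4OHT from 25 to 5 summed counts, with 4 of 8 libraries at 0 (log2 -2.14, SE 0.71). MX2 fell by 1.00 and 1.01 on the log2 scale, from 1.14 to 0.537 CPM and from 0.505 to 0.212 CPM.

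IFI35, which binds the transcription partner NMI, went in DMSO from 10.1 to 4.79 CPM (3.08 to 7.54), with no overlap (log2 -1.07, SE 0.17, edgeR adjusted p = 8.39e-07). OAS3 in 4OHT went from 10.5 to 4.28 CPM (3.43 to 6.14), also with no overlap (log2 -1.23, SE 0.16, edgeR adjusted p = 3.85e-09), and in DMSO from 13.5 to 8.00 CPM (5.41 to 11.7) (-0.73). By role, in both treatments 3 of 7 sensors and 2 of 4 transcription factors fell, the latter being STAT2 (-0.57 and -0.69) and IRF7 (-0.82 and -0.45), the amplifier of interferon production. IFI44 (-0.86 and -0.97), HERC6 (-0.86 and -0.87) and TRIM22 (-0.48 and -0.50) fell in both. Of the IFIT genes, IFIT3 in 4OHT (0.26) was the one call over both treatments. USP18 rose in both (0.18 and 0.38). The other rises were IFITM1 (0.36) and IFITM3 (0.18) in DMSO and CMPK2 (0.38) and TRIM21 (0.28) in 4OHT. Each of the 3 rises in DMSO was lost under at least 1 alternative fit.

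Within siRBM39 in DMSO the 2 siRNAs differed for most ISGs. siRBM39-08 was higher than siRBM39-06 for 24 of 42 ISGs and lower for 1 (21.1% and 20.6% of all genes tested), with a median of 0.43 against -0.00 over all genes and 36 positive differences. The libraries did not overlap for 23 ISGs, which was not counted over all genes. The summed level was 892 ± 16.97 CPM with siRBM39-06 and 1124 ± 42.4 CPM with siRBM39-08 (SD, n = 4), while RBM39 itself was at 25.2 and 28.3 CPM.

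OAS2 differed most, at 0.194, 0.127, 0.218 and 0.0584 CPM with siRBM39-06 and at 0.896, 0.355, 0.886 and 0.383 CPM with siRBM39-08 (log2 2.07, SE 0.41, edgeR adjusted p = 8.17e-05). XAF1 was at 2.75, 2.35, 2.66 and 2.55 CPM and at 8.02, 7.04, 5.23 and 6.47 CPM (log2 1.37, SE 0.16, edgeR adjusted p = 2.08e-09). Neither gene's libraries overlapped between the siRNAs. IFIT2 was at 4.74, 5.91, 6.05 and 5.88 CPM and at 13.0, 12.5, 12.7 and 11.9 CPM (log2 1.15, SE 0.17). BST2 (1.20) rested on low counts. GBP1, an interferon-gamma-induced GTPase, was at 25.5, 26.2, 26.5 and 25.1 CPM and at 48.4, 45.2, 50.2 and 47.3 CPM, which lie on either side of the siNT range of 36.1 to 46.4 CPM except for the 45.2 CPM library. By role, siRBM39-08 was higher for 5 of 7 sensors, 4 of 4 IFIT genes, 3 of 3 GTPases, 3 of 4 membrane factors, 2 of 4 transcription factors, 1 of 5 ISG15 genes and 6 of 15 other effectors, of which ISG20 was lower (-0.71).

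Set against siNT, siRBM39-06 lowered 26 ISGs and raised 2 in DMSO (28.6% and 27.1% of all genes), with a median of -0.54. siRBM39-08 lowered 10 and raised 10 (24.3% and 22.1%), with a median of 0.11. With siRBM39-06 the largest falls were MX1 (-1.79), OAS2 (-1.76) and MX2 (-1.43), and OASL (1.55) and USP18 (0.16) rose. With siRBM39-08 IFI35 (-1.01), IFI44L (-0.97), MX1 (-0.79), IFI44 (-0.73), IRF7 (-0.68), MX2 (-0.67), HERC6 (-0.61), STAT2 (-0.54), TRIM22 (-0.48) and OAS3 (-0.37) fell, all of which also fell with siRBM39-06, and the rises were led by IFITM1 (0.59), IFIT3 (0.32) and IFIT1 (0.29). These per-siRNA tests against siNT were added after the pooled results were seen.

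In 4OHT fewer ISGs differed between the siRBM39 siRNAs. siRBM39-08 was higher for 7 ISGs and lower for 2 (16.1% and 12.5% of all genes), with a median of 0.07 against 0.03 over all genes. Without the library that stood apart 5 were higher and 2 lower (shares over all genes not counted), with 5 calls shared between the fits. The 3 largest differences, ISG20 (1.05), ISG15 (1.04) and IFI27 (0.99), rested on that library: without it they were 0.42, -0.050 and 0.40 and none was called. STAT2 (-0.25 with it, -0.20 without) also lost its call, and UBE2L6 (-0.22) and XAF1 (0.42) became called. GBP1 was at 8.86, 8.97, 9.64 and 8.94 CPM with siRBM39-06 and at 16.0, 13.2, 14.8 and 13.9 CPM with siRBM39-08, with no overlap (log2 0.67, SE 0.07, edgeR adjusted p = 2.06e-09). Against siNT, siRBM39-06 lowered 18 and raised 5 ISGs (26% and 29% of all genes) and siRBM39-08 lowered 10 and raised 7 (24.3% and 34.6%). A fit of siRBM39-08 against siNT without the library that stood apart was not made. Whether the gap between the siRNAs differed between treatments was not tested.

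**Figure D4:**
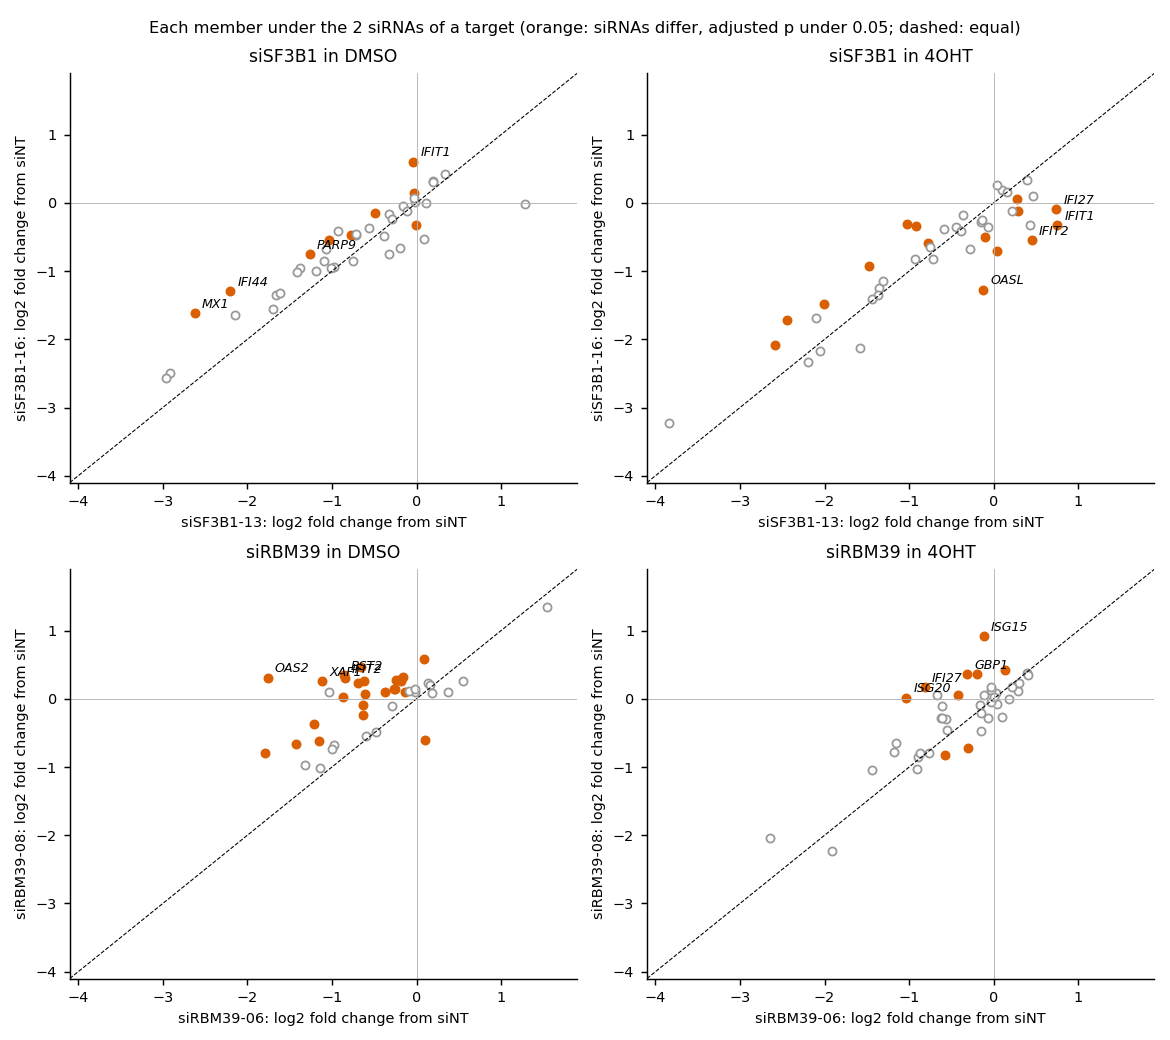
Each tested ISG by its log2 fold change from siNT with the first siRNA (x axis) and with the second siRNA (y axis) of a target, in 4 panels for SF3B1 and RBM39 in DMSO and 4OHT, with orange for ISGs that differ between the siRNAs at edgeR adjusted p under 0.05 and a dashed line of equality. In the DMSO siRBM39 panel 36 of 42 points lie above the line.

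The effect of siRBM39 differed between treatments for 2 ISGs, OASL (interaction log2 -2.06, SE 0.61, edgeR adjusted p = 0.018) and MX1 (-1.13, SE 0.39, edgeR adjusted p = 0.0445), both more negative in 4OHT, beside 5.53% more negative and 7.40% more positive among all genes tested. OASL rested on 12 and 34 summed counts in the DMSO groups. Neither call was kept under all of the alternative fits. Without the library that stood apart 4 ISGs were more negative and 1 more positive (shares over all genes not counted). The calls gained without it were IFITM3 (-0.22), ISG20 (-0.64) and DDX60 (0.32). The control siRNAs gave no call by edgeR. In DMSO 0 ISGs differed between siNT2 and siNT1 (0.584% higher and 0.501% lower among all genes), 1 at an unadjusted p under 0.05 and 1 by DESeq2. In 4OHT 0 differed (0.121% and 0.106% of all genes), 5 at an unadjusted p under 0.05 and 0 by DESeq2, although 38 of 42 log2 differences were positive with a median of 0.15. In 4 libraries of 4OHT siNT2 the title names siNT2 and another label siNT1, and the title was used.

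Other genes of the pathway were examined as lists outside the 43. The interferon genes IFNA1, IFNA2, IFNB1, IFNK and IFNG had no count in any library. By counting error alone this leaves an expected total of up to about 3 counts each, and reads lost in mapping are not covered. IFNL1, IFNL2, IFNL3 and the receptor gene IFNLR1 were not found by name among the counted genes. IFNE, an epithelial type I interferon, was the one tested and rose with 4OHT (log2 3.37, SE 0.20, edgeR adjusted p = 6.71e-21), from 0.228 to 0.582 CPM in DMSO siNT to 3.50 to 4.48 CPM in 4OHT siNT. With 4OHT, where 37.1% of all genes tested rose and 40.4% fell, 4 of 5 receptor genes rose and 1 fell (IFNGR1 0.99, IFNGR2 0.58, IFNAR1 0.46). Of 9 signal transducers 3 rose and 2 fell, among them the feedback inhibitors SOCS3 (1.53) and SOCS1 (-2.66). Of 10 other nucleic acid sensing genes 5 rose and 4 fell, with TLR3, the endosomal receptor for double-stranded RNA, at -6.01 and DHX58, encoding LGP2, at -1.65.

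With siSF3B1 the antigen processing genes, also interferon-induced, fell in 5 of 7 in DMSO and 6 of 7 in 4OHT, with 2 and 1 higher, where 37.3% of all genes tested fell in each treatment. The immunoproteasome subunits fell in both: PSMB9 by 1.33 and 1.57, PSMB8 by 1.05 and 1.26 and PSMB10 by 0.81 and 0.97 on the log2 scale. With siRBM39 1 of the 7 fell and 3 rose in DMSO (22.6% and 21% of all genes) and 1 fell and 2 rose in 4OHT (23.1% and 30.8%). DHX58 fell with siSF3B1 in both treatments (-1.39 and -1.51).

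Splicing of the ISGs could be tested in 15 events, 10 exons and 5 introns in EIF2AK2, IRF1, IRF9 and STAT2, of 674 listed for the 43 genes, since most had too few junction reads. Values are the percentage of transcripts including the exon or intron (PSI), tested with limma over 12921 events and called at an adjusted p under 0.05 and a difference of at least 5 points. With siSF3B1 5 of 15 events were called in DMSO and 6 in 4OHT (20.4% and 23.8% of all events), and with siRBM39 1 in each treatment (5.65% and 6.34%). Exons were less included and introns more retained in each of these calls. The siSF3B1 counts depended on the filters: a stricter coverage score, which left 7 of the events, gave 1 call in each treatment, and no balance filter for introns gave 9 and 11.

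IRF1, a transcription factor of the interferon gamma response, carried most calls. Its 50-nucleotide exon at chr5:132485667-132485716 (GRCh38 coordinates in the deposited table) was included at 94.7 to 100 PSI in DMSO siNT and at 48.3 to 86.3 PSI with siSF3B1, a mean of 98.2 ± 2.44 against 66.2 ± 13.4 (SD, n = 8; difference -32.1, limma adjusted p = 1.36e-16). In 4OHT all 8 siNT libraries were at 100 and siSF3B1 libraries at 53.6 to 69.2 PSI (difference -40.6, limma adjusted p = 4.47e-21). The groups were separate in both treatments, and all siRBM39 libraries were at 100. A second 50-nucleotide exon at chr5:132486795-132486844 fell from 100 to 86.5 ± 9.64 and to 82.3 ± 4.70 PSI, and the 108-nucleotide intron that adjoins it rose by 14.6 and 18.2 points. These values rest on medians of 56 reads per library for the exons and 30 for the intron. IRF1 counts were 33.2 to 40.2 CPM with siSF3B1 in DMSO (siNT 32.4 to 37.95) and 35.01 to 57.4 CPM in 4OHT (siNT 66.7 to 74.0).

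In EIF2AK2 a 129-nucleotide exon fell by 6.14 points in DMSO (limma adjusted p = 0.0398) and 12.1 points in 4OHT with siSF3B1. In DMSO it averaged 98.3 and 92.1 PSI with siNT1 and siNT2, and 93.1 and 85.0 with siSF3B1-13 and siSF3B1-16. In 4OHT the means were 97.9 and 97.7 PSI with siNT1 and siNT2, and 80.5 and 91.0 with siSF3B1-13 and siSF3B1-16. The siSF3B1 and siNT libraries overlapped in both treatments. The event called with siRBM39 in both treatments was a 293-nucleotide intron of STAT2 at chr12:56343532-56343824, retained at 6.05 ± 2.24 PSI in DMSO siNT and 23.7 with siRBM39 (difference 17.6), and at 5.54 ± 2.96 and 21.9 PSI in 4OHT (difference 16.4), on 42 to 239 reads per library. STAT2 counts fell with siRBM39 in the same libraries, from a median of 164 CPM (127 to 181) to 110 CPM (94.95 to 120) in DMSO and from 76.2 CPM (72.6 to 80.1) to 46.2 CPM (37.7 to 53.8) in 4OHT. Whether the intron has a part in that difference was not tested.

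**Figure D5:**
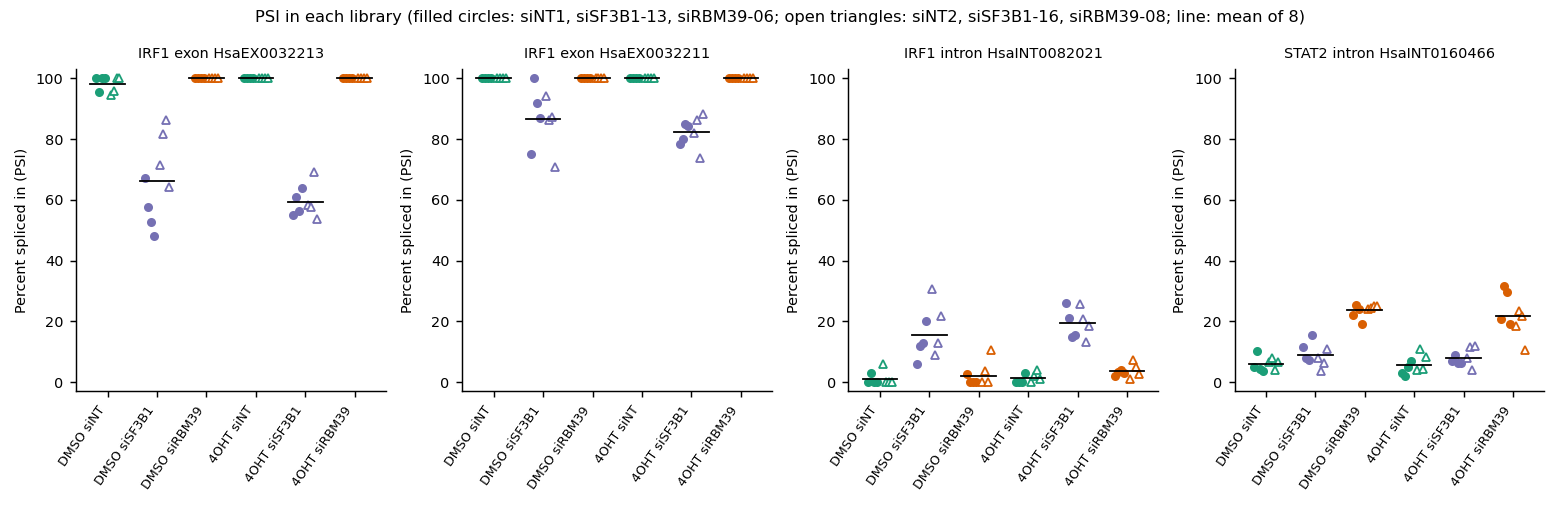
PSI in each library (y axis, percent) for 2 IRF1 exons, the IRF1 intron that adjoins the second and a STAT2 intron, over the 6 groups, with filled circles and open triangles for the first and the second siRNA and a line at the mean of 8. The IRF1 exons lie lower in both siSF3B1 groups, and the STAT2 intron rises from means of 6.05 and 5.54 PSI with siNT to 23.7 and 21.9 PSI with siRBM39.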

How the data were processed

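PolyA-captured RNA of 48 libraries was sequenced and processed by the authors with vast-tools. The deposited gene table holds raw counts and, in further columns, cRPKM (RPKM corrected for mappable length, by the authors), and the deposited splicing table gives PSI as a percent with 2 quality marks per library, a score for read coverage and, in introns, a p-value for uneven junction reads. The submitters' processing notes name edgeR, limma and hg19, but the event coordinates are those of GRCh38. The authors' TMM-normalised CPM table was not used, and 0 sample columns were left out.

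Genes with at least 500 counts in total were fitted with edgeR 4.0.16 (R 4.3.3; TMM, quasi-likelihood test) over 6 groups, and over 12 groups for comparisons of siRNAs, with Benjamini-Hochberg adjustment over 13175 genes and calls at 0.05. Logit PSI was tested with limma 3.58.1. The edgeR fits of 6 and of 12 groups and the limma fit of PSI were first tested on simulated data, each for 1 comparison. For siSF3B1 in 4OHT, on 13175 genes, 72% of genes changed by 0.5 and 96% of those changed by 1 on the log2 scale were recovered. Between the siRBM39 siRNAs in 4OHT, in the fit of 12 groups, the shares were 48% and 82%. Interactions and the alternative methods were not simulated. The genes and lists were chosen with earlier results of these data known. Some genes counted in the pathway and marker lists are not reported here by name. Up to 4 called ISGs with the largest absolute fold change were named in full per comparison, and the others are given by role. Alternatives were DESeq2 1.42.0, limma-voom, other count minimums, other controls, a replicate block and leaving out replicates. The methods state 3 replicates, while the labels give 4. Of 264 pairs of libraries with the same number, 78 had deviations correlated above 0.1 (median r 0.0123), so the numbers were not treated as pairs.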

Additional observations from a re-analysis of the deposited data

Results flagged for a closer look

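A gap between 1 library and the others of its group was examined 132 times. This covered 19 named ISGs and the summed ISG level in the 6 groups of 8, and that sum in the 12 groups of 4. The ISGs were named by their differences in these same libraries, and the examinations share libraries, so no rate expected by chance is given. In 13 examinations 1 library lay far from the others. Of these, 6 were in 4OHT siRBM39-08 replicate 4: ISG15 at 122.5 CPM, SAMD9L at 9.46 CPM, IFI35 at 5.03 CPM, ISG20 at 3.73 CPM, IFI27 at 2.15 CPM and BST2 at 1.58 CPM. IFI44L was at 0.260 CPM in 4OHT siNT2 replicate 3, and ISG20 was at 1.05 CPM in 4OHT siNT1 replicate 4. OAS2 was at 0.388 CPM in 4OHT siSF3B1-13 replicate 4, and CMPK2 was at 0.537 CPM in DMSO siNT2 replicate 1. In DMSO siSF3B1-16 replicate 1, IFI44L was at 1.47 CPM and MX1 at 2.91 CPM, and MX2 was at 0.0287 CPM in DMSO siSF3B1-13 replicate 2.

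The effect of siSF3B1 differed between 4OHT and DMSO, by the edgeR interaction term on the log2 scale, for PARP9 (-1.05), XAF1 (-0.89), SAMD9L (-0.81), PARP14 (-0.75), IFIT5 (-0.68), IRF1 (-0.66), TRIM21 (-0.61), UBE2L6 (-0.56), DDX60 (-0.34) and DDX58 (-0.31), all more negative in 4OHT. It was the other way for IFI35 (1.25), IFIT2 (0.88) and IFI6 (0.87). The effect of siRBM39 differed for OASL (-2.06) and MX1 (-1.13). Among all genes tested the siSF3B1 effect was more negative in 4OHT for 18.6% and more positive for 16.7%. For siRBM39 the shares were 5.53% and 7.40%.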

How the results depend on the processing

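Of 232 recomputed counts of called ISGs or events, 190 stayed within 1.5 times the reported count and 42 did not, and of 580 recomputed values of named ISGs 532 kept direction and call, 47 lost the call and 1 reversed. The replicate block changed no call of a named ISG and moved no count by over 1.5 times (31 ISGs called with it for 4OHT against DMSO). Requiring an absolute log2 fold change of at least 1 left 18 ISGs for 4OHT, 11 and 13 for siSF3B1 in DMSO and 4OHT, 3 and 4 for siRBM39, 2 for the siSF3B1 interaction, 1 and 2 between the siSF3B1 siRNAs and 5 and 2 between the siRBM39 siRNAs. With at least 10000 counts per gene, which tests 25 ISGs, 17 and 17 were called for siSF3B1, 7 and 6 for siRBM39, 0 for the siRBM39 interaction and 1 between siNT2 and siNT1 in DMSO. With 12 groups 23 were called for siRBM39 in DMSO and 6 for its interaction, and with siRBM39-06 alone, an alternative chosen after seeing the data, 28 in DMSO. Among all genes siRBM39-06 alone lowered 28.6% and raised 27.1% in DMSO. For the other alternatives given here the share over all genes was not counted. With siNT1 as the only control 11 were called for siRBM39 in 4OHT, 8 for the siSF3B1 interaction and 0 for that of siRBM39, which was 1 with siNT2 only and 1 by limma-voom. DESeq2 called 1 between siNT2 and siNT1 in DMSO. Leaving out replicates gave 0 to 5 for the siRBM39 interaction (5 without 4OHT siRBM39-08 replicate 4), 0 to 1 between siNT2 and siNT1 in DMSO, 7 to 14 between the siSF3B1 siRNAs in DMSO and 9 to 17 in 4OHT. ISG15 between the siRBM39 siRNAs in 4OHT ranged from -0.050, without 4OHT siRBM39-08 replicate 4, to 1.28. For splicing with siSF3B1, a stricter coverage score left 1 event in each treatment, no minimum difference gave 9 and a difference of at least 10 points gave 3 in DMSO, and no balance filter gave 9 and 11, or 2 and 3 with siRBM39. Where no construction of the alternative accounts for a shift, the cause was not tested. Low counts limit OASL, IFI44L, MX2, OAS2, RSAD2, CMPK2, ISG20, HERC5 and BST2, each with fewer than 100 summed counts in at least 1 group of 8. The same holds for OAS1, which was not tested.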
